A study of Mus musculus with 48 samples.

Results

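The genotype effect in the hippocampus of MSX-3-treated mice was taken from the 12 hippocampal arrays whose titles carry the agent MSX3, 6 from APP/PS1 mice and 6 from WT mice, out of 48 arrays of the series. The APP/PS1 animals were heterozygous APPswe/PS1dE9 males on a C57Bl6/J background, a line whose transgenes, a mutant human-type APP among them, are driven by mouse prion protein promoter elements, and the WT animals were their littermates. Both genotypes drank MSX-3 at 0.3 g/L, so the controls of this comparison were treated as well. The drug dissolves in water and is turned in the body into MSX-2, an antagonist of the adenosine receptor encoded by Adora2a. Treatment began at 3 months of age by the study's methods (4 months by the text deposited with the series) and lasted until 9 to 10 months. Mice were caged by genotype, so that cage and genotype cannot be told apart. Each array held the hippocampal RNA of 1 mouse, numbered in the labels, on a 1-colour Agilent whole mouse design.

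Levels are given as log2 intensity relative to the 75th percentile of the same array, so that 0 is the level of a fairly bright probe and each unit is a doubling, and a level serves only to compare arrays at 1 probe. A probe was called when its adjusted p was under 0.05 and its fold change at least 1.5. The tissue label was checked on markers. Prox1, a transcription factor of dentate granule cells, lay between 0.92 and 2.13 on the 12 hippocampal arrays and between -1.79 and -1.25 on 11 cortical arrays of MSX-3 mice. Tbr1, a transcription factor of deep-layer cortical neurons, lay between 1.53 and 2.56 in the hippocampus and between 4.05 and 4.42 in the cortex. Both markers were apart in the direction of the label. Wfs1, a marker of CA1 neurons, overlapped between the tissues (2.16 to 3.17 in the hippocampus and 1.53 to 2.78 in the cortex), as did Slc17a7, which excitatory neurons of both tissues express (1.997 to 2.58 and 1.49 to 2.66). The 75th percentile of the 12 arrays ran from 535 to 915 in APP/PS1 and from 547 to 907 in WT mice (exact permutation test, two-sided, p = 0.591), and arrays correlated with each other at 0.965 or more in every pair. The share of spots well above background ran from 55.8% to 71.2% in APP/PS1 and from 65.4% to 74.6% in WT mice (exact permutation test, two-sided, p = 0.6). The lowest share was that of APP/PS1 mouse 293, and every other array held 65.4% or more. Ttr, the defining transcript of the choroid plexus, a tissue that adjoins the hippocampus, ranged widely in both genotypes, from 0.16 to 7.27 in APP/PS1 and from 0.09 to 7.15 in WT mice.

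In the APP/PS1 model, amyloid-β peptide cut from APP collects in plaques, and microglia, the resident macrophages of the brain, gather around them. Such microglia switch on a set of genes through the receptor Trem2 and its adaptor Tyrobp, among them lysosomal proteases, chemokines and surface receptors, and lower the genes of the resting state. Astrocytes around plaques raise Gfap, their intermediate filament. The product of Adora2a is a G protein-coupled receptor for adenosine, most abundant in the striatum and also present on glia and at synapses of the hippocampus.

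Genes of microglia and other myeloid cells were among those that rose, with their counts given by list further on. As the first set of sequences, promoters of 4 genes that rose, picked after their values were seen, are given here because each holds a short motif of a factor that acts in these cells. PU.1, encoded by Spi1, is the master transcription factor of myeloid cells and was searched as GAGGAAGT. Interferon-regulated genes carry the interferon-stimulated response element (ISRE), searched by its core GAAANNGAA. The sequences are the 250 bases before the annotated start in RefSeq (GRCm38.p6), 5′ to 3′ on the strand of the gene, with the motif in capitals on whichever strand it was found. Cd72 (a B-cell and microglial receptor, chr4:43454627-43454876, minus strand), Slamf9 (a leukocyte surface receptor, chr1:172475110-172475359, plus strand) and Phf11a (chr14:59297523-59297772, minus strand) hold the PU.1 letters, and Cxcl10 (an interferon-induced chemokine, chr5:92348890-92349139, minus strand) holds the ISRE core. Phf11a also holds the ISRE core, which is left in lower case in its sequence.
Cd72: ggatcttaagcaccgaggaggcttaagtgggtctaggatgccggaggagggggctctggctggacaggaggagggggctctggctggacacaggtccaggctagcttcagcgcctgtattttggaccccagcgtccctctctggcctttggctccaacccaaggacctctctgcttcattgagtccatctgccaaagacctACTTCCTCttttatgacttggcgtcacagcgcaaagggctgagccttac
Slamf9: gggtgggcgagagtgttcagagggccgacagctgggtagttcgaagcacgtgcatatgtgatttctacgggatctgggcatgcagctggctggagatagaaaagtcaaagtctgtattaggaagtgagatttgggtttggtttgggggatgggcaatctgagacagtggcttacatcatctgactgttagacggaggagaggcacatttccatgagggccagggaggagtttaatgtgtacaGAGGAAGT
Phf11a: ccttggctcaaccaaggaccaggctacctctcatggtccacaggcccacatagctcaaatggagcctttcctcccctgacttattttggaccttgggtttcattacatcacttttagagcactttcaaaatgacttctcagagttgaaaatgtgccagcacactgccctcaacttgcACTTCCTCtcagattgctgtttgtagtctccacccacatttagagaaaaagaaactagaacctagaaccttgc
Cxcl10: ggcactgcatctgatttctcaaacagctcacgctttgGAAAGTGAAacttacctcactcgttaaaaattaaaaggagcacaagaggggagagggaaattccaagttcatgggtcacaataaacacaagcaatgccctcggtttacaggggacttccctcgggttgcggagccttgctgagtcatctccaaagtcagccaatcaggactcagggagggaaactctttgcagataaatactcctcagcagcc

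RefSeq gave a promoter for 72 of the genes that rose. On either strand, the PU.1 letters stood in 9 of these (12.5%), in 2.31% of the 13075 tested genes with a promoter and in 2.44% of all 27025 promoters of this length. The other genes with the letters were Bcl2a1d, Tlr1, Il4i1, Phf11b, Samsn1 and C1qc. The ISRE core stood in 9 of the 72 (12.5%), against 6.31% of tested genes, and among a list of interferon response genes in 13 of 21 (61.9%). The AP-1 letters TGANTCA stood in 13.9% of the 72 and 4.87% of tested genes, and the E-box CACGTG, the core of the lysosomal gene element, in 5.56% and 7.89%. Within the lists themselves, the E-box stood in 4 of 23 lysosomal genes (17.4%) and the PU.1 letters in 1 of 22 plaque microglia genes (4.55%). These shares describe letters in a window and were not tested.

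The hippocampus of MSX-3-treated APP/PS1 mice differed from that of MSX-3-treated WT mice almost wholly by genes that were higher. Of 37471 probes tested, 121 (0.323%) were called, with 120 higher (0.32%) and 1 lower (0.00267%) in APP/PS1 mice. The called probes stood for 98 named genes, and 3 of them had no name. The median change of the 121 was 1.97-fold. The change reached 2-fold for 55 probes, 4-fold for 12 and 10-fold for 7, the last being Cst7, Ccl3, Clec7a, Itgax, Lilrb4a and both probes of Ccl4, of which Itgax and Lilrb4a were well above background on only 1 WT array each. At 118 of the 121 called probes no APP/PS1 array overlapped a WT array, which held for 0.7% of all probes with 12 values. With no minimum fold 138 probes passed, 2 of them lower, and 1774 probes had an unadjusted p under 0.05. The median log2 fold change over all probes was 0.01.

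**Figure D1:**
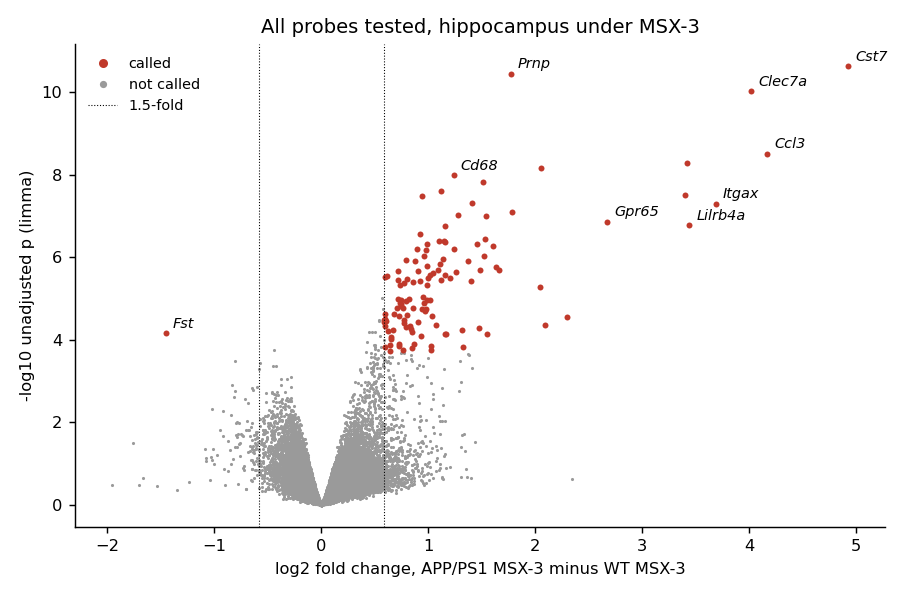
Each point is 1 of 37471 probes, with the log2 fold change of APP/PS1 over WT mice on MSX-3 in the hippocampus on the x axis and −log10 of the unadjusted p (limma, 6 arrays against 6) on the y axis. The 121 called probes are coloured, and all but Fst lie to the right of 0.

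Cst7, which encodes cystatin F, an inhibitor of lysosomal cathepsins and a marker of microglia at plaques, changed most. Its level was 0.23, 0.52 and 1.26 (lowest, median and highest of 6) in APP/PS1 mice and -5.03, -4.28 and -3.67 in WT mice. The lowest APP/PS1 array stood far above the highest WT array, and the fold change was 30.4 (log2 fold change 4.92 ± 0.22 SE, adjusted p = 6.643e-07). Clec7a, the β-glucan receptor dectin-1, had levels of -1, -0.62 and -0.29 in APP/PS1 mice and -5.36, -4.39 and -4.16 in WT mice, a 16.2-fold difference (log2 fold change 4.02 ± 0.20, adjusted p = 1.172e-06). Over the alternative settings the log2 change of Cst7 went as low as 3.51 and that of Clec7a as low as 2.63, both still called. Itgax, the integrin subunit CD11c, had levels of -3.15, -2.41 and -2.01 in APP/PS1 mice and of -7.47, -6.08 and -5.22 in WT mice, where it was well above background on 1 of 6 arrays. It thus entered the test through the APP/PS1 arrays, and its log2 fold change of 3.69 ± 0.32 (adjusted p = 0.0001444) is set against WT signals that were mostly not well above background.

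Ccl3 and Ccl4, chemokines that call in leukocytes, ranked beside these genes. Ccl3 was at -1.61, -1.26 and -1.12 in APP/PS1 mice and at -6.70, -5.33 and -4.48 in WT mice, 18.0-fold higher in the former (log2 fold change 4.17 ± 0.28, adjusted p = 2.851e-05). Ccl4 was at -2.18, -1.55 and -0.93 in APP/PS1 mice and at -5.76, -4.88 and -4.61 in WT mice, a 10.68-fold difference (log2 fold change 3.42 ± 0.24, adjusted p = 3.904e-05). The second Ccl4 probe gave 3.40 but was well above background on only 3 WT arrays. Neither gene had an overlapping pair of arrays. Ccl6, a chemokine of microglia and macrophages, lay between -0.28 and 0.39 in APP/PS1 mice and between -2.51 and -1.72 in WT mice, with a log2 fold change of 2.05 ± 0.15 (4.14-fold, adjusted p = 4.228e-05). Cxcl10, which attracts T cells and is induced by interferon, lay between -2.85 and -1.89 in APP/PS1 and between -4.89 and -3.78 in WT mice, a 3.17-fold difference (log2 fold change 1.66 ± 0.20, adjusted p = 0.001825). For Ccl5, a further T-cell chemokine, the call was the weakest of these (log2 fold change 1.03 ± 0.20, adjusted p = 0.04876).

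Several surface receptors followed. Lilrb4a, an inhibitory immunoglobulin-like receptor of myeloid cells, had levels of -3.29, -2.34 and -2.28 in APP/PS1 mice and of -7.52, -5.76 and -5.23 in WT mice, where, as for Itgax, 1 of 6 arrays was well above background (log2 fold change 3.44 ± 0.33, adjusted p = 0.0003442). Lilrb4a has a near-identical neighbour, Lilrb4b, and the probe may read both. Gpr65, an acid-sensing receptor, was well above background on 5 APP/PS1 arrays and on 0 WT arrays, and was at least 2.2-fold higher in APP/PS1 mice (adjusted p = 0.0003014). Such a bound sets the APP/PS1 mean against the dimmest signal still measured on each WT array. Gm11545, a predicted gene, was well above background on 4 APP/PS1 and 0 WT arrays, and at least 1.76-fold higher by the same reckoning over all 6 APP/PS1 arrays (adjusted p = 0.01196). Both probes entered the test through the APP/PS1 arrays alone. The bounds were taken at the reported settings only. Over the alternative settings the log2 change of Gm11545 went as low as 0.38, and its call was lost in 3 of 15. Cd72 rose by 1.78 ± 0.16, Slamf9 by 1.61 ± 0.17, Cd52 by 1.52 ± 0.17 and Tlr1 by 1.48 ± 0.18 on the log2 scale, with adjusted p-values from 0.0002102 to 0.001825. None of these probes had overlapping groups. Cd72 was well above background on only 3 and Tlr1 on only 2 WT arrays, so both entered the test through the APP/PS1 arrays. Over the alternative settings their changes went as low as 0.61 and 0.42, and Tlr1 lost its call in 1 of them. The probes of Treml2, another surface receptor of myeloid cells, disagreed. The dimmer probe was called (1.40 ± 0.18, adjusted p = 0.002438, groups apart), and the brighter one was not (0.70 ± 0.51, adjusted p = 0.952, groups overlapping). The lysozyme genes Lyz2 (1.51 ± 0.12, and 1.63 at a second probe) and Lyz1 (1.46 ± 0.15) rose too, but they are near-identical copies and may share signal. The same holds for Phf11a (1.55 ± 0.27, adjusted p = 0.02385), a member of a gene cluster, and for Bcl2a1d (1.53 ± 0.16), 1 of several copies of an inhibitor of cell death.

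**Figure D2:**
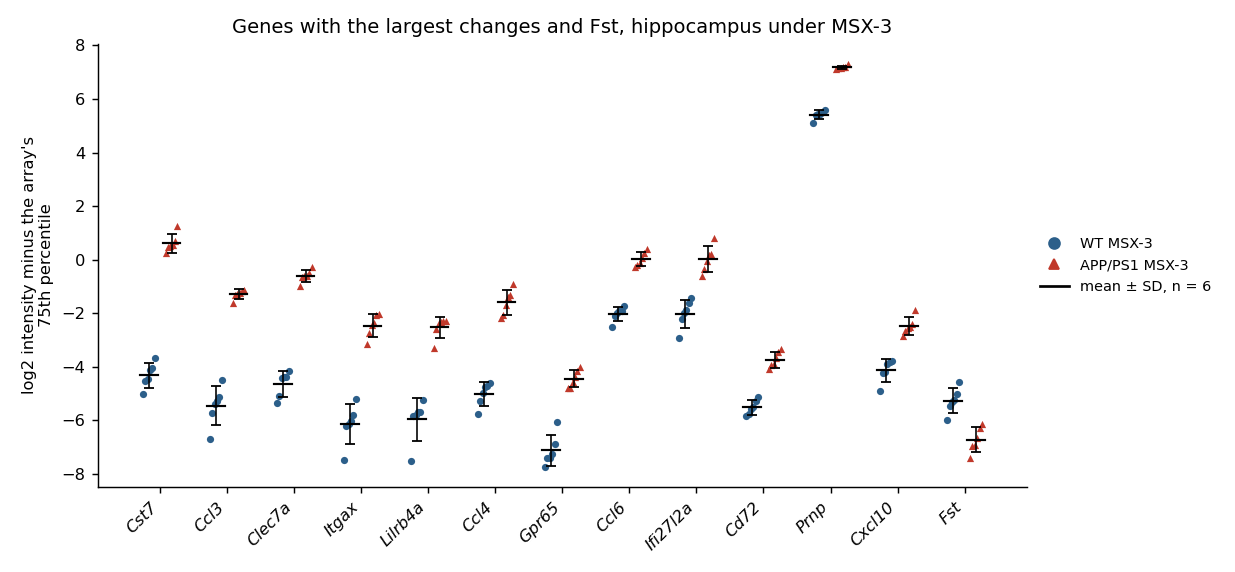
Each point is the hippocampal array of 1 MSX-3-treated mouse, 6 APP/PS1 and 6 WT per gene, with the level (log2 intensity relative to the 75th percentile of the array) on the y axis. Bars are means ± SD, and for each of the 13 genes shown the arrays of the genotypes do not overlap, Fst being the single gene with the higher level in WT mice.

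Prnp served as a check of the genotype, since the transgenes were built with sequence of this gene. Its level was 7.12, 7.18 and 7.301 in APP/PS1 mice and 5.12, 5.43 and 5.58 in WT mice, 3.42-fold higher in the former (log2 fold change 1.77 ± 0.08, adjusted p = 6.643e-07). All 12 arrays stood with their label. A second Prnp probe was not called (-0.05), and neither was App, at 5.59, 5.65 and 5.82 in APP/PS1 mice and 5.41, 5.64 and 6.01 in WT mice (-0.02 ± 0.10, adjusted p = 0.983). The position of the App probe in the gene is not given in the sources used here, so it may not read the transgene. Beyond Prnp, 0 of the other 17 genes listed for APP and its processing were called, near the 0.323% called of all tested probes. The median over all 18 was 0.0045. Bace1, the β-secretase, changed by -0.11 and Ncstn, a subunit of γ-secretase, by -0.0045, neither called.

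For comparison with this and the following list counts, 0.32% of all tested probes were called higher and 0.00267% lower. These shares are over probes, whereas the lists count genes, each at its brightest probe. Of 16564 named genes tested, 98 had a call at any of their probes. Among 26 genes known to mark microglia at plaques, 13 rose and 0 fell, and the median log2 fold change was 0.61. Beside Cst7, Clec7a, Itgax, Ccl6, Cd52 and Lyz2, these were Trem2, Tyrobp, Cd68, Ch25h, Igf1, Ctsd and Ctsz. Trem2, the lipid-sensing receptor, was at 2.71, 3.14 and 3.21 in APP/PS1 mice and at 1.51, 1.85 and 2.01 in WT mice (log2 fold change 1.27 ± 0.12, 2.42-fold, adjusted p = 0.0002306). Tyrobp, the adaptor through which Trem2 signals, was at 2.51, 2.82 and 3.18 against 1.51, 1.74 and 1.97 (1.10 ± 0.11, 2.15-fold, adjusted p = 0.0006464). The genotypes were apart for both genes. The list was not uniform. Apoe (0.09 ± 0.11), Axl (0.17 ± 0.10), Spp1 (0.15 ± 0.22), Lpl (0.20 ± 0.11) and Csf1 (0.07 ± 0.10) did not pass the test at their brightest probes, although all are listed as genes of plaque microglia. A dimmer probe of Csf1, the ligand of Csf1r, was called (0.85, adjusted p = 0.02222), which made 14 genes with a called probe. As hippocampal tissue was measured whole, more cells of a type and more RNA per cell cannot be told apart.

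Markers of resting microglia, read by the brightest probe of each gene, gave 0 calls among 17 genes, near the 0.323% called of all tested probes. Their median was 0.24, with 16 of 17 above 0. Tmem119 (-0.03 ± 0.12) and P2ry12 (0.21 ± 0.11), the most specific of them, overlapped between genotypes. Csf1r (0.36 ± 0.10, adjusted p = 0.445), the receptor that keeps microglia alive, Cd33 (0.57 ± 0.12, adjusted p = 0.0892) and Aif1 (0.57 ± 0.14, adjusted p = 0.189), which encodes the stain marker Iba1, had groups that did not overlap but missed the threshold. Cx3cr1 was called by a second probe (0.96, adjusted p = 0.006817) and not by its brightest (0.35, adjusted p = 0.366), and Siglech likewise by 1 of its probes (0.72 against 0.06). No marker of the resting state was called lower, as was true of all tested probes but 1 (0.00267%).

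Phagocytic and signalling receptors also gave calls, all of them higher. All 22 measured Fc receptor and myeloid signalling genes lay above 0, with a median of 0.54, and 6 rose. Beside Lilrb4a these were the iron and metal transporter Slc11a1 (0.99 ± 0.10), the phosphatase Ptprc, or CD45 (0.99 ± 0.12), and the immunoglobulin receptors Fcgr2b (0.93 ± 0.16), Fcgr1 (0.79 ± 0.13) and Fcer1g (0.71 ± 0.10). Fcgr3 (0.58 ± 0.12, adjusted p = 0.0752) narrowly missed, and Cd84 was called at a dimmer probe (1.37, adjusted p = 0.00131) and not at its brightest (0.36). Of 16 pattern receptors and cytokines, Tlr1, Tlr2, Cd14 and Ly86 rose at their brightest probe, and the median was 0.36. Tlr7 (0.73, adjusted p = 0.01147) and Cd180 (1.16 and 0.95) were called at dimmer probes only. Tlr2, a receptor for bacterial lipoprotein and amyloid, was at -2.36, -2.21 and -1.93 in APP/PS1 mice and at -3.60, -3.35 and -3.03 in WT mice (1.16 ± 0.11, 2.23-fold, adjusted p = 0.0003442). Il1b, Il1a and Il6 had no probe among those tested. Of 16 chemokines and receptors measured, 5 rose (Ccl3, Ccl4, Ccl5, Ccl6 and Cxcl10), and the median was 0.37, with Cx3cr1 called at its dimmer probe as above.

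Lysosomal genes gave 6 calls among 29, all higher, with a median of 0.24. Cd68, a lysosomal membrane protein used as a stain for phagocytes, was at 0.89, 1.10 and 1.28 in APP/PS1 mice and at -0.36, -0.11 and 0.03 in WT mice (1.24 ± 0.09, 2.36-fold, adjusted p = 5.5e-05), and its 3 probes were all called. The proteases Ctss (0.72 ± 0.09), Ctsd (0.62 ± 0.11) and Ctsz (0.59 ± 0.09) and the glycosidase Gusb (0.61 ± 0.08) rose by 1.51-fold to 1.65-fold. Ctsh was called at a dimmer probe (0.60, adjusted p = 0.002234) and not at its brightest (0.48). Of 15 lipid genes only Ch25h rose, an enzyme that makes 25-hydroxycholesterol (1.16 ± 0.20, adjusted p = 0.02389).

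In the complement list of 15 genes, C4b (0.78 ± 0.10, adjusted p = 0.002594), C1qc (0.75 ± 0.11, adjusted p = 0.006831) and C1qa (0.65 ± 0.12, adjusted p = 0.03088) rose. C1qb (0.53 ± 0.12, adjusted p = 0.149) and C3 (0.22 ± 0.25) did not pass. C4b is a near copy of C4a, whose own probe gave 0.77 ± 0.20 without a call (adjusted p = 0.301). Of 14 antigen presentation genes, Nlrc5, the activator of MHC class I genes, rose (1.02 ± 0.13, adjusted p = 0.002081), and the MHC class II chain Cd74 stood at 1.05 ± 0.28 with overlapping arrays (adjusted p = 0.326). In the interferon list 27 of 28 measured genes were above 0 (median 0.46), and 3 were called. These were Ifi27l2a (2.04 ± 0.27, 4.13-fold, adjusted p = 0.003184), Cxcl10 and Lgals3bp (1.04 ± 0.16, adjusted p = 0.01168). Isg15 (0.47 ± 0.15), Ifit3 (0.41 ± 0.14) and Bst2 (0.67 ± 0.17) did not pass. Ifit1 (1.30 ± 0.57) did not pass either. Its level was -0.24 in APP/PS1 mouse 293 and had a median of -3.73 in that group, and the change was 0.70 without this mouse, again not called.

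Reactive astrocyte genes were called in 4 of 18 cases, all higher, with a median of 0.26. Gfap was at 3.33, 3.48 and 3.77 in APP/PS1 mice and at 2.59, 2.68 and 2.85 in WT mice (0.80 ± 0.09, 1.74-fold, adjusted p = 0.001287), and its second probe gave 0.75. Aspg, an asparaginase that is raised in reactive astrocytes, gained 0.98 ± 0.11 (adjusted p = 0.0008375), and Osmr, the oncostatin M receptor, 0.76 ± 0.11 (adjusted p = 0.008431), and C4b is the fourth. Serpina3n (0.15 ± 0.15), Vim (0.17 ± 0.12) and Lcn2 (-0.36 ± 0.44) were not called. General astrocyte markers gave 0 calls among 14, near the 0.323% called of all tested probes, with a median of -0.04. Aqp4, the water channel of astrocyte endfeet, stood at 0.28 ± 0.13.

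**Figure D3:**
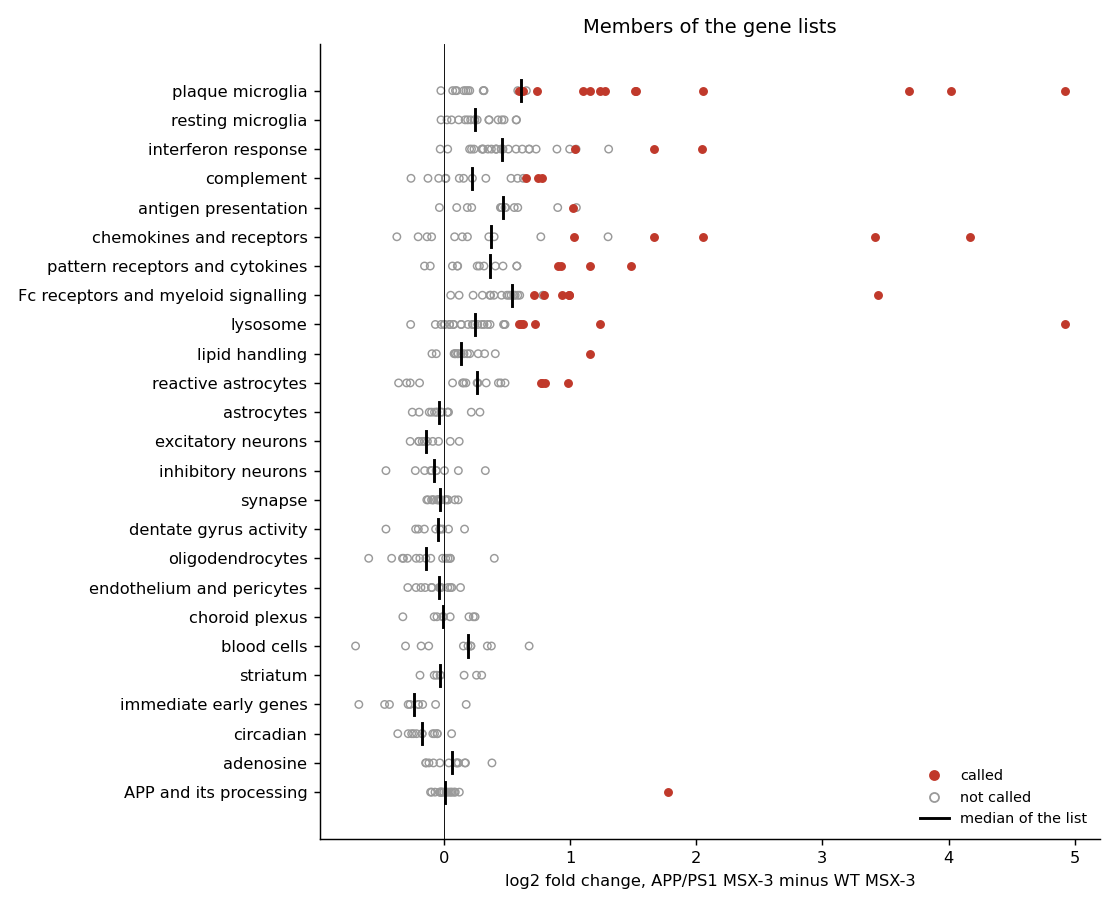
Each point is the log2 fold change (APP/PS1 over WT, MSX-3, hippocampus) of 1 measured gene at its brightest probe, arranged by gene list on the y axis. Filled points were called and the bar is the median of the list. The called genes lie in the microglial, immune, lysosomal, lipid, astrocyte and APP-processing lists, and none lies below 0.

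Neuronal genes showed no call. Of all tested probes 0.323% were called, so lists of this size would mostly hold none, and 0 calls is near that share. There were 0 calls among 10 markers of excitatory neurons (median -0.15), 10 of inhibitory neurons (-0.08), 18 synaptic genes (-0.04) and 10 genes of dentate gyrus activity (-0.05). Rbfox3, the neuronal antigen NeuN, was at 4.94, 5.20 and 5.33 in APP/PS1 mice and at 5.10, 5.35 and 5.59 in WT mice (-0.16 ± 0.10, adjusted p = 0.952), and the genotypes overlapped. Dlg4, the scaffold PSD-95, stood at -0.14 ± 0.08, the AMPA receptor subunits Gria1 and Gria2 at -0.09 ± 0.08 and 0.01 ± 0.10, the NMDA receptor subunit Grin2b at -0.09 ± 0.15 and Ppp1r9b (spinophilin) at -0.10 ± 0.08. Immediate early genes, which neuronal firing induces, had a median of -0.24 with 0 of 10 called. Arc, the largest of them, was at 1.76, 2.31 and 2.83 in APP/PS1 mice and at 2.45, 2.92 and 3.67 in WT mice (-0.68 ± 0.24, adjusted p = 0.806). Oligodendrocyte (0 of 15, median -0.15), endothelial (0 of 13, -0.04), choroid plexus (0 of 9, -0.01), striatal (0 of 8, -0.03), circadian (0 of 12, -0.18) and blood cell genes (0 of 11, 0.19) also gave none. The summed level of the choroid plexus list ran from 1.28 to 7.43 in APP/PS1 and from 1.56 to 7.27 in WT mice, and that of the blood list from 3.32 to 6.27 and from 3.18 to 5.20.

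The target of the drug was not called. Adora2a was at -3.67, -3.25 and -2.55 in APP/PS1 mice and at -3.60, -3.25 and -2.82 in WT mice, with a log2 fold change of 0.04 (95% confidence interval -0.36 to 0.44, adjusted p = 0.983). None of 12 adenosine genes was called (median 0.06), and Adora3, the A3 receptor, which microglia express, stood at 0.38 ± 0.12 (adjusted p = 0.676). With 0.323% of all tested probes called, 0 of 12 is near that share.

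**Figure D4:**
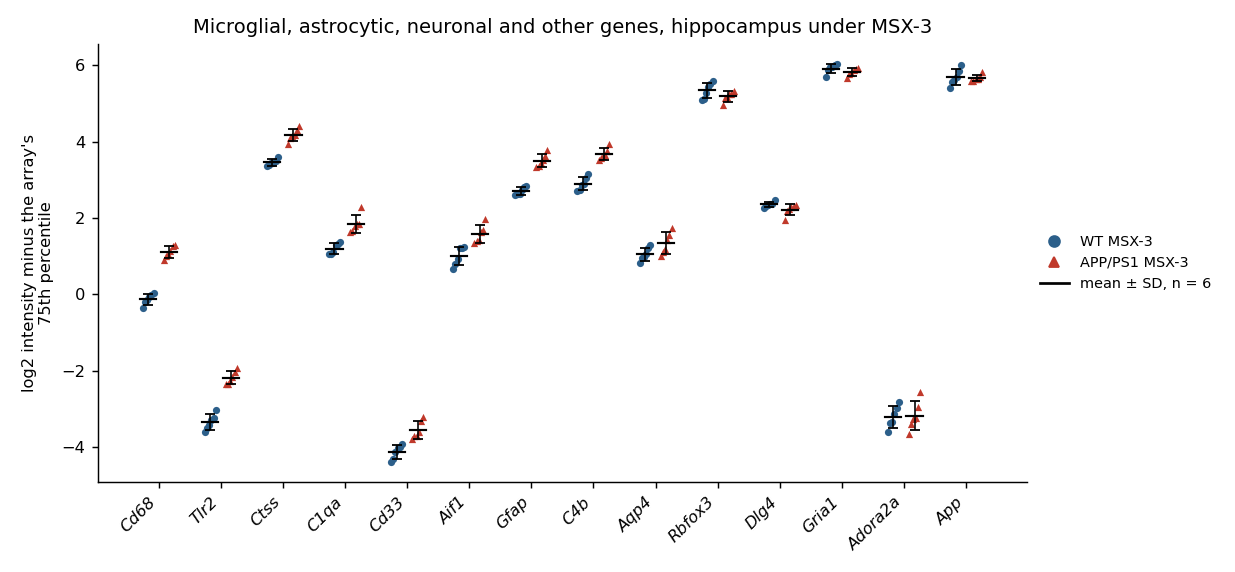
Each point is the hippocampal array of 1 MSX-3-treated mouse, 6 APP/PS1 and 6 WT per gene, for microglial, astrocyte and neuronal genes with Adora2a and App, with the level (log2 intensity relative to the 75th percentile of the array) on the y axis. Bars are means ± SD. The genotypes are apart for Cd68, Tlr2, Ctss, C1qa, Gfap and C4b and overlap for Rbfox3, Gria1, Adora2a and App.

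The only probe called lower was that of Fst, which encodes follistatin, a secreted inhibitor of activin. It was at -7.39, -6.80 and -6.12 in APP/PS1 mice and at -5.98, -5.29 and -4.57 in WT mice (-1.45 ± 0.25, adjusted p = 0.02309). The probe was well above background on 0 APP/PS1 and 5 WT arrays, which leaves only a bound on the APP/PS1 side and no fold above 1 from it. Over the alternative settings the change of Fst shrank to as little as -0.23, and its call was lost in 7 of 15. Asb10 was called higher at 1 of its probes (2.09 ± 0.34, adjusted p = 0.01674) and not at the other (0.49 ± 0.28, adjusted p = 0.952). The called probe was well above background on only 1 WT array and entered the test through the APP/PS1 arrays. Its change went as low as 0.64 over the alternative settings.

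The 12 arrays lay on 6 slides, of which 3 held both genotypes, and each genotype was scanned on both scan days. Each of the 121 called probes differed in the same direction within each of those 3 slides and on both days. At the 118 called probes whose genotypes did not overlap this had to be so. The count is therefore no test of an effect of slide or day. With the slide as a fixed block, 47 probes were called of which 43 were among the 121, and the adjusted p of Gfap was then 0.0803, of C4b 0.0665, of Cxcl10 0.0659 and of Ifi27l2a 0.129. That fit compares the genotypes only within the slides that held both, with 6 APP/PS1 and 3 WT arrays. With normexp background, run with an offset of 50, in place of the deposited correction, 58 probes were called. The change of dim genes was smaller on the log2 scale, at 2.18 for Ccl3, 1.34 for Itgax, 1.21 for Lilrb4a and 0.51 for Gpr65, whose call was lost. The offset is added to each intensity before the log, which by itself narrows the changes of dim probes. After centring each array on its median, which moved the median of all probes to -0.08, 68 probes were called, and Gfap, C4b, C1qa, C1qc, Ctss, Ctsd and Ctsz were not among them.

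The calls of 10 named probes were lost in a fit with 1 mouse left out. The call of Ccl5 held only without APP/PS1 mouse 281 or WT mouse 303 (0.90 to 1.14 on the log2 scale over all 12 mice left out in turn). That of C1qa held only without APP/PS1 mice 267 and 283 or WT mouse 49 (0.56 to 0.69), that of Ch25h only without APP/PS1 mice 267 and 281 or WT mice 298 and 77 (1.08 to 1.32), and that of Fcgr2b only without APP/PS1 mice 266 and 283 or WT mice 298 and 303 (0.84 to 1.001), each mouse taken singly. Ctsd lost its call without APP/PS1 mouse 281, 283 or 293 or WT mouse 282, 298, 304 or 77 (0.57 to 0.68), and Phf11a without APP/PS1 mouse 293 or 319 or WT mouse 282, 304, 49 or 77 (1.37 to 1.68). Fst lost it without APP/PS1 mouse 266, 283 or 319 or WT mouse 304, 49 or 77 (-1.60 to -1.31), and the called probe of Asb10 without APP/PS1 mouse 319 or WT mouse 77 (1.85 to 2.27). Fcgr1 lost it without APP/PS1 mouse 281 or 319 or WT mouse 282 or 77 (0.74 to 0.90), and Ctsz without APP/PS1 mouse 281 or 293 or WT mouse 282, 298 or 77 (0.55 to 0.63). All 10 kept their direction in each case. Gm11545, well above background on only 4 APP/PS1 arrays, left the test without any of those mice. It could be tested in 8 of the 12 cases and kept its call there (2.17 to 2.64).

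Whether the genotype effect depends on the treatment was tested with the 12 hippocampal arrays of H2O-treated mice. No probe among 38128 (0%) was called for the difference between the genotype effects on MSX-3 and on H2O. The smallest adjusted p was 0.8895, and 1852 probes had an unadjusted p under 0.05. The genotype effect of Cst7 was 4.92 on MSX-3 and 4.57 on H2O (difference 0.35, 95% confidence interval -0.54 to 1.25), and that of Cd68 was 1.24 and 1.2 (0.03, -0.24 to 0.31). Clec7a had 4.02 and 3.30 (0.72, 0.20 to 1.23, adjusted p = 0.8895), Gfap 0.80 and 0.70 (0.10, -0.26 to 0.45), C4b 0.78 and 1.02 (-0.25, -0.51 to 0.02) and Cxcl10 1.66 and 2.51 (-0.85, -1.68 to -0.02, adjusted p = 0.8895). The second Gfap probe went the other way, with 0.75 and 0.97 (-0.22, -0.54 to 0.10). Intervals of this width leave room for differences of more than 1.5-fold in several of these genes. The named genes nearest to a call were Slc15a2, a peptide transporter (1 probe, 2.03 ± 0.40), the vasopressin receptor Avpr1b (-1.34) and the phosphatase Cdc14a (-0.52), each with an adjusted p of 0.8895. That Slc15a2 probe was too dim to enter the test between the genotypes on MSX-3. At the brightest probe of the gene the difference was 0.57 (unadjusted p = 0.032, limma).

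On H2O alone, 152 of 37430 probes (0.406%) were called between the genotypes, 137 of them higher in APP/PS1 mice. A total of 75 probes were called under both treatments, which was 62% of the calls on MSX-3 and 49.3% of those on H2O. All 118 MSX-3 calls that were tested on H2O had the same direction there. The plaque microglia list had a median of 0.61 on MSX-3 and of 0.65 on H2O, and the interferon list of 0.46 and 0.83. These medians are side by side and were not tested.

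Cortex and hippocampus of the same MSX-3-treated mice were compared next, without the cortical array of WT mouse 298, whose spot grid was not located by the scanner software. The genotype effect differed between the tissues at 69 of 38079 probes (0.181%), and at each of them it was lower in the hippocampus. C4b differed most firmly, with a log2 fold change of 0.78 in the hippocampus and 3.29 in the cortex (hippocampus minus cortex -2.51 ± 0.15, adjusted p = 5.556e-09). Gfap had 0.80 and 2.80 (-2.001 ± 0.18, adjusted p = 2.482e-06). Ccl6 (-1.66 ± 0.18, adjusted p = 6.115e-05), Cd68 (-0.92 ± 0.12, adjusted p = 0.0005303), Tlr2 (-1.23 ± 0.18, adjusted p = 0.001942), Clec7a (-1.97 ± 0.35, adjusted p = 0.01128) and Ccl4 (-2.25 ± 0.42, adjusted p = 0.01852) showed the same. For Cst7 the effect was 4.92 against 6.89 (-1.97 ± 0.47, adjusted p = 0.137) and for Prnp 1.77 against 2.20 (-0.43 ± 0.10, adjusted p = 0.0911), neither called.

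Of the 121 hippocampal calls, 113 had the larger effect in the cortex and 39 were among the 69. In the cortex on its own, 540 of 35847 probes (1.51%) were called, 488 of them higher, and 113 were called in both tissues, which was 93.4% of the hippocampal calls and 20.9% of the cortical ones. The median of the plaque microglia list was 1.5 in the cortex against 0.61 in the hippocampus. With the mouse as a block, over the 11 mice with both tissues, 47 probes differed between tissues. Of these, 42 were lower in the hippocampus and only 37 were among the 69. Cd14, Ly86, C1qa, C1qc, Ctsd, Slc11a1 and Bcl2a1d were among those no longer called. With the array without a grid kept, 5 probes were called.

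**Figure D5:**
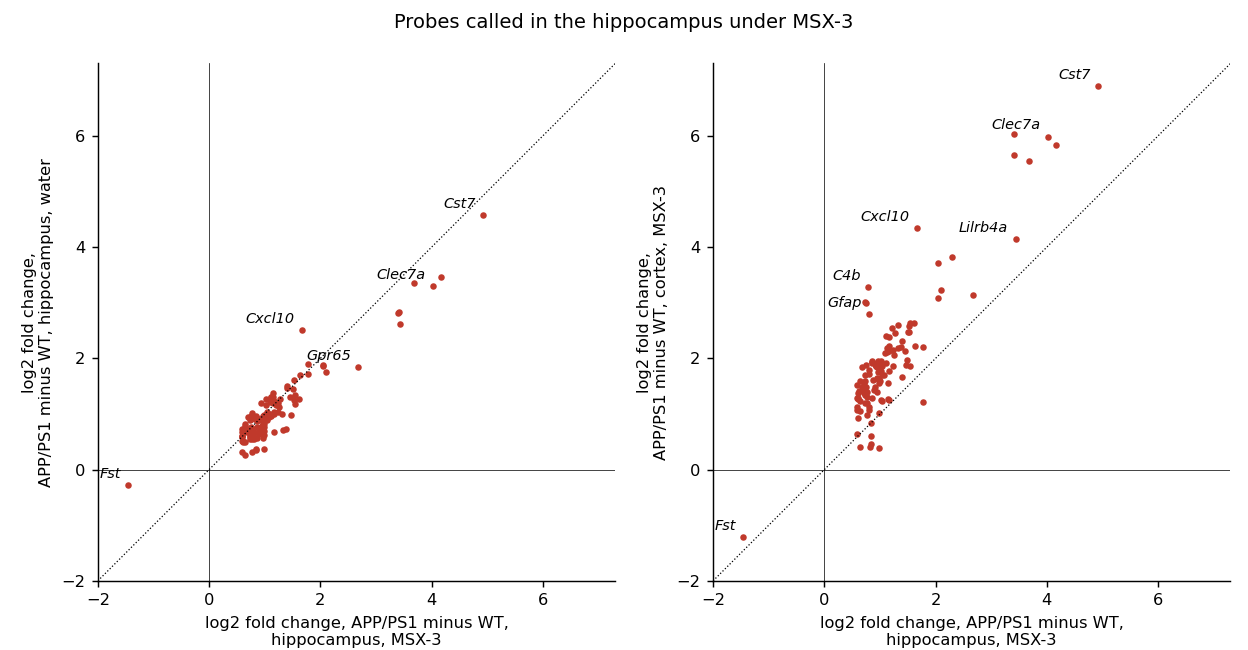
Each point is 1 of the probes called between the genotypes in the hippocampus on MSX-3, with its log2 fold change there on the x axis and, on the y axis, the log2 fold change in the hippocampus on H2O in one panel and in the cortex on MSX-3 in the other. The dotted line marks equal changes, and most points of the cortex panel lie above it, as 113 of the 121 probes had the larger effect in the cortex.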

How the data were processed

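RNA of hippocampus and cortex was hybridised to 1-colour Agilent arrays. The authors deposited scanner intensities as processed by Agilent Feature Extraction 10.7.3.1 (per the submitters' processing notes), with background subtracted and no normalization between arrays, and a matrix of the same intensities. Groups came from the sample titles. Log2 values of the deposited intensities were computed here, the 75th percentile of each array (59305 spots, controls left out) was taken off, outlier spots were left out and spots of 1 probe were averaged. A probe entered a test if 4 or more arrays in either group showed it well above background. Of 56605 probes, 32994 were named through RefSeq (GRCm38.p6), 59 through the tables of the study, and 23552 had no name. The number of arrays, 6 per group, limits the precision.

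Genotypes were compared with limma 3.58.1 (lmFit and eBayes, two-sided, Benjamini-Hochberg) under R 4.3.3 with the data.table package (version 1.17.8), on the 12 arrays only, after tests on simulated data. Adjusted p-values in the text are from limma. Exact permutation was used for the array quality values, whose smallest p is 0.00216. Differences between treatments and tissues were tested as contrasts. Mouse numbers pair the tissues, as both come from 1 animal, and deviations of the pairs correlated between -0.226 and 0.367 (median 0.116, 11 mice).

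The comparison, gene lists and tests were chosen with earlier results of these data known. Named genes were those of the study's text, the 25 largest changes among called probes with groups apart, up to 4 members of each list and the leading genes of both difference contrasts, each at its brightest kept probe with other probes given where their call differed, and members of a list named beyond this rule were chosen after their values were seen. A few genes are not reported here. Alternatives covered background, normalization, filters, array weights, slide, scan day, the groups in the fit, the fold and each mouse left out.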

Additional observations from a re-analysis of the deposited data

Results flagged for a closer look

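Single arrays stood apart from the other 5 of their group in 7 of 86 groups of 6 that were looked at, by Dixon's criterion (gap over range above 0.625), where chance marks about 1 in 20 groups. Among APP/PS1 mice these were Cd52 in mouse 283, at 0.318 against 0.686 for the nearest array, Dlg4 in the same mouse at 1.94, Lyz2 at its dimmer probe in mouse 281 at -3.52, and Lilrb4a in mouse 267 at -3.29. Among WT mice they were Gm11545 in mouse 282 at -5.36, and Prnp at 5.12 and Lilrb4a at -7.52, both in mouse 298.

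The genotype effect in the hippocampus differed from that in the cortex, by the test of the difference, at 69 probes. Of these, 37 were also called with the mouse as a block. In log2 units the effect in the hippocampus minus that in the cortex was -1.97 for Clec7a, -2.25 and -2.63 for the probes of Ccl4, -1.66 for Ccl6, -1.23 for Tlr2, -1.09 for Slc15a3, -1.06 for Cd52, -0.96 for Lyz2, -0.95 for Bcl2a1d, -0.92 for Cd68, and -2.001 and -2.25 for the probes of Gfap.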

How the results depend on the processing

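The count of 121 called probes fell to 58 with normexp background, of which 57 were among the 121, to 68 after centring on the array median, to 47 with the slide as a fixed block and to 55 at a minimum fold of 2. A higher minimum fold can only lower the count. The slide block compares genotypes only on slides that held both, with 6 APP/PS1 and 3 WT arrays. The normexp setting adds an offset of 50, which narrows the log2 changes of dim probes. How much of each fall came from these settings was not tested, nor was the cause of the fall with the median. Over the other 14 settings the count ran from 84 to 149, and from 93 to 121 when a mouse was left out. The difference between treatments had 0 calls in every setting. The difference between tissues had 116 calls with array weights, 5 with all arrays kept and 47 with the mouse as a replicate block. Of these 47, 37 were among the 69 reported.

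Directions turned only at probes without a call. With the slide as a fixed block these were Fos (0.0931), Aqp1 (-0.486), Kcne2 (-0.225), Wfs1 (0.123), Adora2b (0.0052), Grin2b (0.00698), Tmem119 (0.00211), Siglech (-0.0276), C3 (-0.0219) and Ncstn (0.035). Aqp1 stood at -0.014 with the slide as a random block and at -0.218 in the fit of all 4 groups with the slide, and under the same settings Ncstn at 0.00949 and 0.0113 and, in the latter, Tmem119 at 0.00363. With array weights Folr1 stood at 0.0212 and Adora2a at -0.0645. Quantile normalization gave -0.0609 for Adora2a and 0.054 for App, and the median setting -0.0507 for Adora2a, -0.0791 for Gria2, -0.02004 for Csf1 and -0.0292 for Siglech. Normexp gave 0.00784 for Tmem119 and 0.0166 for Ncstn, and the percentile over kept probes 0.00415 for Ncstn. The median of the APP processing list was -0.000126 with normexp and -0.082 with the array median. With single mice left out, values ran from -0.089 to 0.134 for Adora2a, -0.0747 to 0.045 for App, -0.0376 to 0.0691 for Gria2, -0.183 to 0.0143 for Grin2b, -0.537 to 0.911 for Aqp1, -1.116 to 0.328 for Folr1, -0.0448 to 0.186 for Ide, -0.698 to 1.044 for Kcne2, -0.244 to 0.538 for Prlr, -0.0216 to 0.554 for S100a9, -0.0941 to 0.014 for Tmem119, -0.0262 to 0.0224 for Ncstn, -0.00188 to 0.118 for Csf1, -0.00651 to 0.0909 for Siglech and -0.0315 to 0.0189 for that list.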
